A study of Mus musculus with 29 samples.

Results

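The collagen gene family was taken as every gene row of the count files whose symbol has the form Col, a type number, the letter a and a chain number, which gave 43 of 23337 genes. Of these, 8 were classed as fibrillar, 7 as cartilage, 9 as basement membrane and 8 as network collagens. A further 6 were FACITs (fibril-associated collagens with interrupted triple helices), 4 were transmembrane collagens, and Col28a1 stood alone. Chains of types II, IX, X and XI were kept together as cartilage chains. The fibrillar class therefore leaves out the fibril-forming types II and XI, the FACIT class type IX and the network class type X. The type XXVI chain is listed in the files under the older symbol Emid2 and was therefore not a member. Of the 43 genes, 28 reached a mean of at least 5 CPM (counts scaled to library size) in at least 1 group and are described with values. The other 15 had a highest group mean of 4.76 CPM, and 8 of them stayed under 1 CPM in every group.

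Collagens are triple helices of alpha chains, and each gene encodes a single chain. Fibrillar chains form the cables of connective tissue, cartilage chains form the fibrils of cartilage and its precursors, type IV chains form the sheet of the basement membrane, and type VI chains form beaded filaments. In the embryo the paraxial mesoderm segments into somites wrapped in basement membrane, and the ventral part of each somite, the sclerotome, later forms the cartilage of vertebrae and ribs.

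RNA was sequenced from 29 libraries of C57BL/6 mouse embryos at E9.0, in 8 groups; the labels give embryos with a Dll1-YFP mark of the Dll1 lineage for all of them. SOMA (n = 3) held presomitic mesoderm with the newest somite, SOMB (n = 4) somites 2 to 5, SOMC (n = 4) somites 6 to 9, and SOMD (n = 4) somites from 10 up to 13, 14, 15 or 16 in its 4 libraries. These cells were sorted for YFP by FACS with no culture. CTRL and DIR (n = 4 each) were sorted Dll1-lineage cells of explanted presomitic mesoderm, cultured with both LDN and SAG (DIR) or with neither (CTRL). LDN is a blocker of BMP type I receptor kinases, and SAG is an agonist of Smoothened in the hedgehog pathway. WT and MUT (n = 3 each) were unsorted trunk tissue; what is mutated in MUT is not stated, and the series title names the long noncoding RNA PEAT. No label states that libraries of a group are from different embryos or cultures; the p-values reflect only the spread between these libraries, which may be technical.

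Counts over genes ran from 11541131 to 44363411 per library. SOMC libraries 1 and 4, and SOMD libraries 1 and 4, were nearly identical to each other (chi-square per degree of freedom 1.95 and 1.91 over genes), yet differed by more than sampling noise and were kept apart; the main results are also given with each pair summed. Summed levels of 5 presomitic mesoderm markers were 388 to 583 CPM in SOMA and 10.5 to 16.8 CPM in SOMD. Sclerotome markers summed to 88.3 to 144 CPM in DIR and 50.1 to 137 CPM in CTRL. These sums overlap, while 1 of 3 sclerotome markers tested was higher in DIR, as given below. Endothelial markers were present in all sorted groups, at 52.0 to 241 CPM in the SOM libraries, and were highest at each level in SOMA3, SOMB3, SOMC2 and SOMD2. Because these are bulk samples, fewer cells of a type and less RNA per cell cannot be told apart in any result below.

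Members whose genes lie together, or that changed along the somites, are shown first by sequence (RefSeq, GRCm38.p6, the mm10 assembly; 35 of the 43 genes matched, with 38 start sites). Col4a1 and Col4a2, the chains of the ubiquitous type IV collagen, lie head to head on chromosome 8, at 11198423 to 11312826 on the minus strand and 11312805 to 11449287 on the plus strand in GENCODE M21. The 2 annotated genes overlap by 22 bases at chr8:11312805-11312826, printed on the strand of Col4a2:
Col4a1 and Col4a2 overlap: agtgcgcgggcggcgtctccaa
Without strand in the library kit, reads from such an overlap cannot be assigned to either gene. Col4a3 and Col4a4 on chromosome 1 start 72 bases apart and Col4a5 and Col4a6 on the X chromosome 1309 bases apart, both head to head.

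The 250 bases before the annotated start are printed for Col3a1, Col11a1 and Col9a1, which rose from SOMA to SOMD, and for Col13a1, which fell. These genes were chosen after their values were seen, from windows that overlap no annotated exon. Capitals mark the motif of the TATA box, which is TATAAA, the motif CCAAT, and the motif of the GC box, which is GGGCGG. They were searched on both strands, and the reverse complements are marked too.
Col3a1, chr1:45311288-45311537, plus strand: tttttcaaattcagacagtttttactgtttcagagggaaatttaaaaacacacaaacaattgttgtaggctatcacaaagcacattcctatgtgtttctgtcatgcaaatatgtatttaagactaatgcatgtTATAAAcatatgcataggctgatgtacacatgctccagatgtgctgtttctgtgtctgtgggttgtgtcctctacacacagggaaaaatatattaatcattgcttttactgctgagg
Col11a1, chr3:114030290-114030539, plus strand: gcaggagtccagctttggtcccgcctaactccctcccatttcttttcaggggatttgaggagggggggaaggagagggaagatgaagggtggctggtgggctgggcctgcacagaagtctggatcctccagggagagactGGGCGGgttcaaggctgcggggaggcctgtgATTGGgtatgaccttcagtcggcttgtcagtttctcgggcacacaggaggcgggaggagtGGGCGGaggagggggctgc
Col9a1, chr1:24177360-24177609, plus strand: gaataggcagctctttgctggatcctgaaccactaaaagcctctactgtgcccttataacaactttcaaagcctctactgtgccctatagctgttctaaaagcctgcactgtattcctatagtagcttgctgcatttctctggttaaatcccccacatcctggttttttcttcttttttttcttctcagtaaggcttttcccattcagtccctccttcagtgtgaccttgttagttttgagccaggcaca
Col13a1, chr10:61979109-61979358, minus strand: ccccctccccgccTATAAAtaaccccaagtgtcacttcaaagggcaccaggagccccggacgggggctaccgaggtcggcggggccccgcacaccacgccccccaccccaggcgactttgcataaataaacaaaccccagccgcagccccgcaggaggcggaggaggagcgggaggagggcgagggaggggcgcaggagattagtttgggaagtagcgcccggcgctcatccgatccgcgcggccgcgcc

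The 4 windows share no motif. TATAAA was in those of Col3a1, which rose, and Col13a1, which fell, and the GC box and CCAAT were in that of Col11a1. None of the 3 was in the window printed for Col9a1. A second start window of Col9a1, not printed because it overlaps an annotated exon, held 1 CCAAT match. GC content ran from 35.2% (Col3a1) to 68.8% (Col13a1). Over all 38 collagen windows TATAAA was in 5 (13.2%, against 12.4% of 32851 windows of all genes), CCAAT in 13 (34.2% against 33.8%) and the GC box in 22 (57.9% against 32.7%). ACAATG, a core of Sox factor sites, was in 1 window (2.63% against 10.7%). These are matches of letters and not measured binding sites.

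Among the uncultured sorted groups, summed collagen RNA was lowest in the presomitic mesoderm and higher in the somites. The 43 genes together gave 1253 to 1801 CPM in the 3 SOMA libraries, 2258 to 2895 CPM in SOMB, 2729 to 3842 CPM in SOMC and 2634 to 3632 CPM in SOMD. No SOMA library reached the lowest library of a later level, whereas SOMC and SOMD overlapped. Cultured cells had 1903 ± 322 CPM (SD, n = 4) in CTRL and 1414 ± 247 CPM (SD, n = 4) in DIR, and trunk had 2024 ± 217 CPM in WT and 2062 ± 90.6 CPM in MUT (SD, n = 3 each).

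The makeup of that RNA was compared as CPM per kilobase of exon, the scale on which different genes can be set side by side. Fibrillar chains made 38.5% ± 4.99 (SD, n = 3) of summed collagen CPM per kilobase in SOMA, 49.5% ± 3.38 in SOMB, 55.1% ± 3.51 in SOMC and 53.7% ± 2.06 in SOMD (SD, n = 4 each). Basement membrane chains made 43.2% ± 5.67, 35.9% ± 3.88, 27.7% ± 4.47 and 25.5% ± 3.36 at the same levels, while their summed CPM was 716 ± 108 in SOMA and 925 ± 183 in SOMD. Cartilage chains made 9.69% ± 1.30 in SOMA and 15.4% ± 0.935 in SOMD, and network chains 0.812% ± 0.0252 and 1.14% ± 0.173. The ranges of SOMA and SOMD did not overlap in any of these 4 shares.

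**Figure D1:**
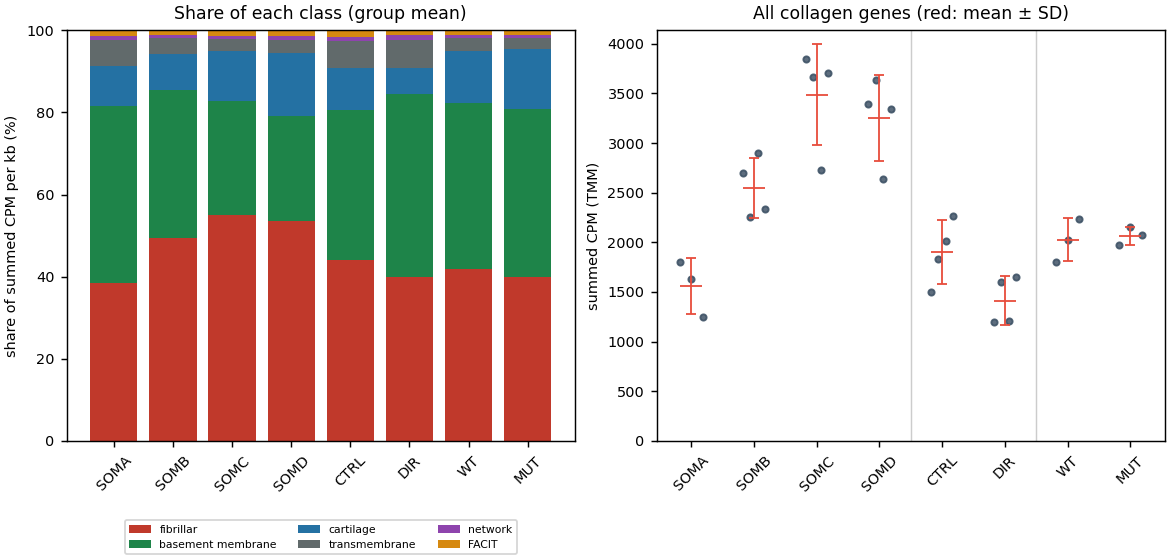
Left, share (%) of each collagen class in the summed CPM per kilobase of exon, as the mean of each of the 8 groups; right, summed CPM of the 43 genes in each library, with the group mean ± SD in red. From SOMA to SOMD the fibrillar share goes from 38.5% to 53.7% and the basement membrane share from 43.2% to 25.5%, and no SOMA library reaches the SOMB libraries in summed CPM.

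The most abundant chain per kilobase also differed. Col4a1 ranked first in SOMA, at 45.5 ± 6.57 CPM per kilobase against 27.7 ± 15.2 for Col3a1 (SD, n = 3), and again first in CTRL and DIR. Col3a1, the chain of type III collagen of pliable tissues, ranked first in SOMB, SOMC, SOMD, WT and MUT, at 160 ± 21.3 CPM per kilobase in SOMD, where Col4a1 followed at 59.6 ± 9.47 (SD, n = 4). These ranks depend on the length used: per kilobase of the longest transcript Col18a1 ranked first in CTRL (43.5 against 41.2 for Col4a1), DIR (43.0 against 36.6) and MUT (72.8 against 66.2 for Col3a1), while the other 5 groups had the same first chain.

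SOMD against SOMA spans the whole axis and held most of the collagen changes. In this comparison 35 of the 43 genes passed the low-count filter; 22 rose and 2 fell by edgeR's quasi-likelihood test at an adjusted p under 0.05, where 10.8% of all 13790 genes tested were higher and 8.92% lower. The median log2 fold change was 0.88 over these 35 genes and 0.00 over all genes. By class, 7 of 8 fibrillar, 4 of 6 cartilage, 2 of 7 basement membrane, 5 of 5 network and 2 of 5 FACIT genes tested rose. Of the 4 transmembrane genes 2 rose and 2 fell. With the nearly identical libraries summed the counts were 18 and 2 (all genes: 8.29% and 6.78%), and Col1a1, Col4a2, Col8a2 and Col23a1 lost their call. In the libraries with a low share of reads in no feature 15 rose and 1 fell (all genes: 720 and 654 of 13647). There Col4a5, Col5a1, Col9a2, Col13a1 and Col24a1 lost their call as well, and Col14a1 gained one. Over all SOMD and SOMA libraries all 5 presomitic mesoderm markers fell and 3 of 4 sclerotome markers rose and 1 fell, while none of 6 endothelial markers passed the test. Of 4 neural crest markers 2 rose, and of 5 lateral plate and heart markers 2 rose; the part of these cells in the collagen values was not tested. Among libraries with a low share of reads in no feature, 30 of 34 genes tested were higher in SOMD than in SOMA. Their median log2 fold change was 0.97 (all genes: -0.007). Libraries with a high share were only SOMA1 and the nearly identical SOMD1 and SOMD4, and there 25 of the 28 described genes were higher in SOMD. Those 28 were kept by their highest group mean, which favours genes high in SOMD, and no share over all genes was counted.

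**Figure D2:**
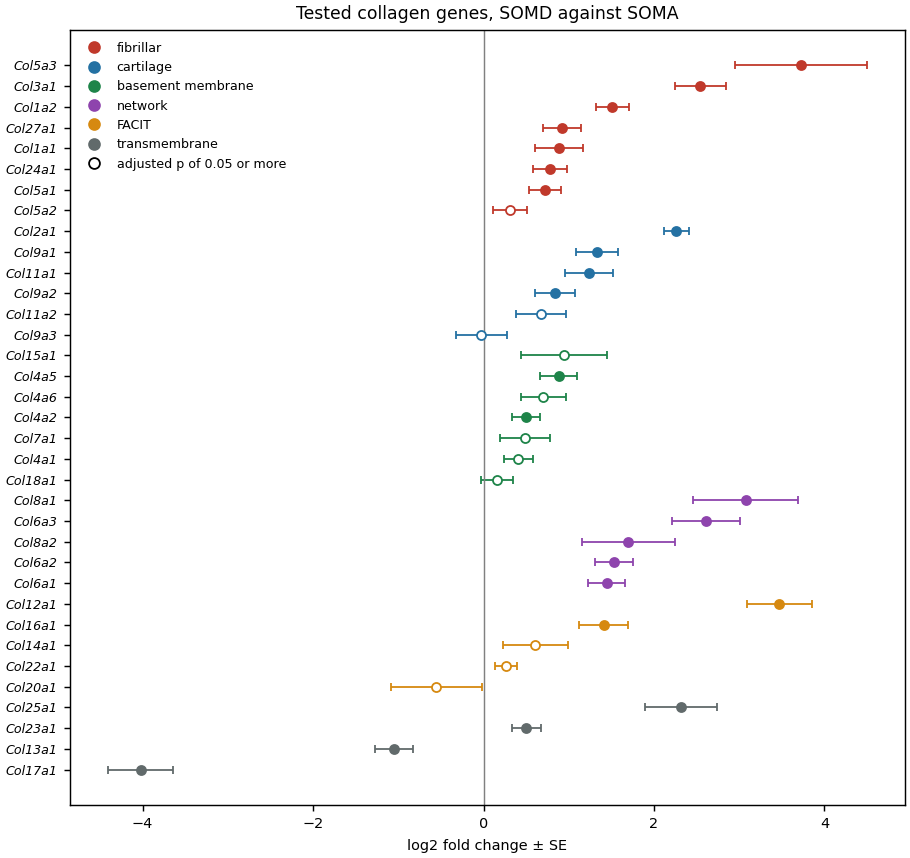
Log2 fold change ± SE of the 35 tested collagen genes in SOMD against SOMA (positive: higher in SOMD), coloured by class, filled where the edgeR adjusted p is under 0.05. Filled points lie to the right in all classes, and Col13a1 and Col17a1 are the 2 filled points to the left.

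Among fibrillar chains Col3a1 had 251, 119 and 92.8 CPM in SOMA, 422 to 638 CPM in SOMB, 637 to 1078 CPM in SOMC and 976, 878, 730 and 987 CPM in SOMD. Every SOMD library was above every SOMA library, and SOMC overlapped SOMD. The rise from SOMA to SOMD was 2.55 ± 0.30 (log2 fold change ± SE; edgeR adjusted p = 1.43e-05), or 5.84-fold.

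Type I collagen, the main fibril of bone, skin and tendon, has Col1a1 and Col1a2 as its chains. Col1a2 had 98.4, 106 and 66.0 CPM in SOMA and 261, 305, 192 and 258 CPM in SOMD, with no overlap, a rise of 1.51 ± 0.19 (edgeR adjusted p = 3.23e-05). Col1a1 went from 108 ± 31.7 CPM (SD, n = 3) in SOMA through 299 ± 48.3 CPM in SOMC to 197 ± 48.3 CPM in SOMD (SD, n = 4 each). Its rise of 0.88 ± 0.28 (edgeR adjusted p = 0.035) was lost without any 1 of SOMA3, SOMA4, SOMD1, SOMD2 or SOMD4 (adjusted p up to 0.161).

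Type V collagen starts and limits the width of fibrils. Col5a1 rose from a mean of 106 CPM (n = 3) to 173 CPM (n = 4) (0.72 ± 0.19, edgeR adjusted p = 0.0121; 0.0651 without SOMA4), whereas Col5a2 had 123 ± 26.3 and 151 ± 23.6 CPM and did not pass the test (adjusted p = 0.327). Col5a3 had 0.0632 to 0.575 CPM in SOMA and 8.75, 1.21, 1.93 and 7.15 CPM in SOMD, all above SOMA, with the nearly identical libraries 1 and 4 the highest. Its rise was 3.72 ± 0.77 (edgeR adjusted p = 0.00239). Col27a1 and Col24a1, fibrillar chains of cartilage and of developing bone, rose by 0.92 ± 0.23 and 0.78 ± 0.20 (edgeR adjusted p = 0.00764 and 0.0113); the call of Col24a1 was lost without SOMA1 (0.0579).

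Among cartilage chains Col2a1, the main fibril chain of cartilage, had 68.3, 52.3 and 52.8 CPM in SOMA, 103 to 133 CPM in SOMB, 201 to 274 CPM in SOMC and 307, 295, 220 and 277 CPM in SOMD. The first 3 levels did not overlap, and SOMC overlapped SOMD. The rise over the axis was 2.26 ± 0.15 (edgeR adjusted p = 4.71e-08), the lowest adjusted p of the 43 genes in this comparison.

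Type IX collagen decorates the surface of type II fibrils. Col9a1 had 42.5, 25.7 and 22.5 CPM in SOMA, 19.2 to 35.8 CPM in SOMB, 66.0, 50.1, 39.2 and 68.6 CPM in SOMC, and 82.8, 76.5, 66.5 and 77.7 CPM in SOMD. SOMA and SOMB overlapped, and all SOMD libraries were above all SOMA libraries. Col9a1 rose by 1.33 ± 0.24 (edgeR adjusted p = 0.000861). Its partner Col9a2 rose by 0.84 ± 0.23 (edgeR adjusted p = 0.0176) at 2.14 ± 0.536 CPM (SD, n = 3) in SOMA, but not when SOMA3 or SOMD4 was left out (adjusted p up to 0.082). The third chain, Col9a3, had a log2 fold change of -0.03 ± 0.30.

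Type XI chains nucleate the type II fibril. Col11a1 had 34.8, 22.7 and 20.5 CPM in SOMA and 76.7, 44.1, 44.0 and 78.2 CPM in SOMD, again highest in libraries 1 and 4 and with no overlap. It rose by 1.24 ± 0.28 (edgeR adjusted p = 0.00494), and Col11a2 had 0.67 ± 0.29 (adjusted p = 0.124). Col10a1, the chain of hypertrophic cartilage, had at most 6 counts summed over any SOM group and was not tested.

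Of 7 basement membrane chains tested 2 rose, and all 7 log2 fold changes were positive, with a median of 0.50. Col4a1 had 308, 343 and 256 CPM in SOMA and 385, 486, 340 and 373 CPM in SOMD, ranges that overlap between SOMA3 and SOMD3 (0.41 ± 0.17, edgeR adjusted p = 0.115). Its partner Col4a2 rose by 0.50 ± 0.16 (adjusted p = 0.0408), a call lost when any 1 of SOMA1, SOMA4, SOMD1, SOMD2 or SOMD4 was left out (adjusted p up to 0.185). Col4a5, an X-linked chain of type IV networks, rose by 0.88 ± 0.22 (adjusted p = 0.00896), and Col4a6 had 0.70 ± 0.26 (adjusted p = 0.0763).

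Col18a1, the core protein of a heparan sulfate proteoglycan and source of endostatin, had 224 ± 29.3 CPM (SD, n = 3) in SOMA, 353 ± 51.7 CPM in SOMB, 350 ± 58.7 CPM in SOMC and 247 ± 69.1 CPM in SOMD (SD, n = 4 each). It did not differ between the ends of the axis beyond its error (0.16 ± 0.18, edgeR adjusted p = 0.606). Col4a1, Col4a2, Col4a6 and Col18a1 were highest in SOMB3, SOMC2 and SOMD2 of their groups. So were Col4a5 and Col7a1, the fibrillar Col1a1 and Col1a2, and the transmembrane Col13a1. In SOMA these genes were highest in SOMA3, except for Col1a1 and Col7a1, which were highest in SOMA1. With Col1a2 and Col13a1 in it, this order was not particular to basement membrane chains. In SOMB3, SOMC2 and SOMD2 the 6 endothelial markers summed to 230, 234 and 241 CPM, against 85.0 to 172 CPM in the other libraries of SOMB, SOMC and SOMD. They summed to 200 CPM in SOMA3, against 100 CPM in SOMA1 and 52.0 CPM in SOMA4. The part of endothelial RNA in these levels was not tested. Col7a1, the anchoring fibril of skin, and Col15a1, a basement membrane proteoglycan of vessels and muscle, had group means of at most 9.09 and 6.85 CPM in the SOM groups and passed no test there.

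Network chains were low and rose. Col6a1, Col6a2 and Col6a3 together form type VI collagen. Col6a3 had 1.80, 1.02 and 1.07 CPM in SOMA and 10.7, 6.99, 4.47 and 10.1 CPM in SOMD, with no overlap and a rise of 2.61 ± 0.40 (edgeR adjusted p = 0.000167). Col6a1 and Col6a2 rose by 1.44 ± 0.22 and 1.53 ± 0.22 (edgeR adjusted p = 0.000144 and 0.000109). Col8a1 and Col8a2 rose as well, at no more than 2.55 CPM in any library, and the call of Col8a2 (adjusted p = 0.0392) was lost without any 1 of SOMA1, SOMA3, SOMA4, SOMD1, SOMD2 or SOMD4 (up to 0.146); Col6a4, Col6a5 and Col6a6 were under 1 CPM in every group.

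Among FACITs Col12a1, which links fibrils in dense connective tissue, had 1.40, 1.24 and 1.33 CPM in SOMA, 2.43 to 4.36 CPM in SOMB, 6.32 to 11.2 CPM in SOMC and 20.3, 8.72, 8.72 and 20.4 CPM in SOMD. The ranges of SOMA, SOMB and SOMC did not overlap, SOMC overlapped SOMD, and SOMD was split, with the nearly identical libraries 1 and 4 above libraries 2 and 3. The rise was 3.47 ± 0.38 (edgeR adjusted p = 7.76e-06). Col16a1 rose by 1.41 ± 0.29 (adjusted p = 0.00196), and Col14a1 and Col22a1 did not pass the test.

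The transmembrane chains went in both directions. Col17a1, a hemidesmosome chain of skin epithelium, had 2.41, 2.92 and 5.31 CPM in SOMA and 0.133 to 0.345 CPM in SOMD, a fall of 4.02 ± 0.38 on the log2 scale (edgeR adjusted p = 1.93e-06). Of 5 surface ectoderm and epithelium markers 1 fell and none rose in the same comparison, with summed levels of 137 to 191 CPM in SOMA and 76.1 to 147 CPM in SOMD; their part was not tested. Col13a1, a chain of muscle and nerve junctions, had 16.6, 23.9 and 20.2 CPM in SOMA and 10.0, 12.7, 7.48 and 8.53 CPM in SOMD, with no overlap, and fell by 1.05 ± 0.22 (adjusted p = 0.00237; 0.081 in the libraries with a low share of reads in no feature). Col25a1, a chain of motor neuron and muscle contact, rose by 2.32 ± 0.42 (adjusted p = 0.00084), and Col23a1 by 0.50 ± 0.17 (adjusted p = 0.0485; up to 0.192 without 1 of SOMA3, SOMA4, SOMD1, SOMD2 or SOMD4).

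**Figure D3:**
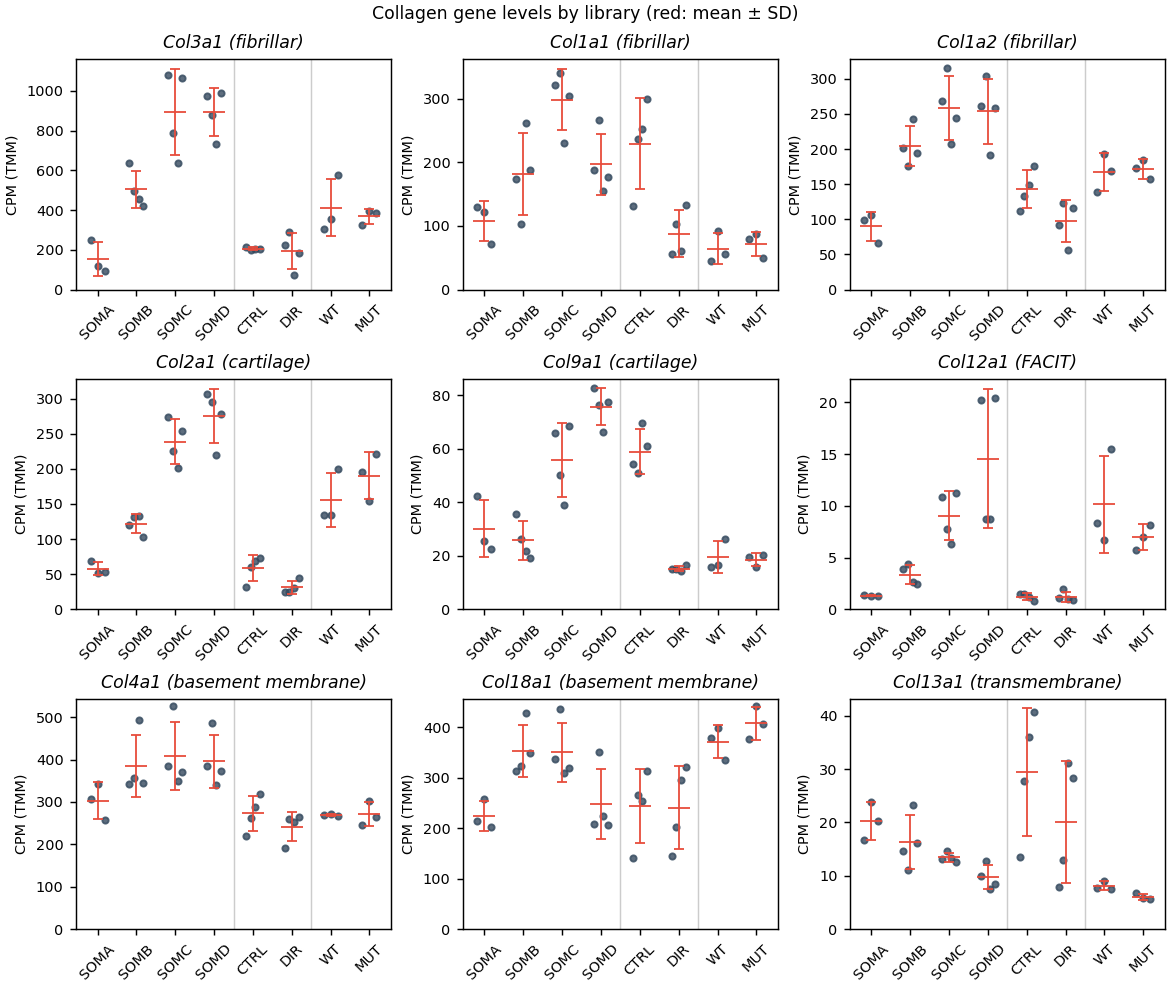
CPM of 9 collagen genes in each library of the 8 groups (points), with the group mean ± SD in red; grey lines part the uncultured somite levels, the cultures and the trunk samples. Col3a1, Col1a2, Col2a1, Col9a1 and Col12a1 are higher in all SOMD than in all SOMA libraries, Col13a1 is lower, and Col9a1 lies between 14.5 and 16.4 CPM in DIR against 50.8 to 69.9 CPM in CTRL.

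Taken level by level, SOMB against SOMA had 5 collagen genes higher and 1 lower of 35 tested (edgeR; 4.13% and 4.55% of all genes), with a median log2 fold change of 0.41. Col3a1 rose by 1.69 ± 0.29, Col1a2 by 1.17 ± 0.19 and Col2a1 by 1.06 ± 0.14 (edgeR adjusted p = 0.0011, 0.000776 and 0.000151), and these calls held without any 1 library. Col17a1 fell by 2.65 ± 0.33 (adjusted p = 6.44e-05). Col12a1 and Col18a1 had adjusted p of 0.0429 and 0.0393, which reached 0.123 without 1 of SOMA1, SOMA3, SOMA4, SOMB1 or SOMB2 and 0.142 without 1 of SOMA1, SOMA4, SOMB3 or SOMB4. Col18a1 also lost its call with the nearly identical libraries summed. Libraries of the same number deviated together in these groups (correlations of 0.398 to 0.455 over 3 pairs). A fit of the 2 groups with the replicate number as a block was chosen after the data were seen. A block over all SOM libraries, whose numbers did not all pair (SOMB3 with SOMC3: -0.185), called 5 higher and 1 lower. The fit of the 2 groups called 18 collagen genes higher and 2 lower (all genes: 9.49% and 8.81%). Among the 13 further rises were Col1a1 (0.95, adjusted p = 0.000534), Col4a1 (0.37, 0.00179), Col4a6 (0.75, 6.67e-05) and Col5a2 (0.45, 0.000157), and Col9a1 was the further fall (-0.24, 0.0349).

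SOMC against SOMB had 4 collagen genes higher and none lower (edgeR, against 0.486% and 0.341% of all genes). Of the 35 log2 fold changes 31 were positive, with a median of 0.485 (all genes: 0.003). Col2a1 rose by 0.98 ± 0.13 (edgeR adjusted p = 0.00189), Col9a1 by 1.12 ± 0.22 (0.0299), Col12a1 by 1.42 ± 0.30 (0.0416) and Col6a2 by 0.95 ± 0.20 (0.0403). Only Col2a1 held with the nearly identical libraries summed (all genes: 0.0802% higher and 0.0292% lower), and without any 1 library; each of the other 3 lost its call without SOMB4, SOMC1 or SOMC4 (up to 0.149). In the libraries with a low share of reads in no feature no collagen gene passed the test (0.00733% and 0.0293% of all genes). At an unadjusted p under 0.05, 19 collagen genes were higher and 0 lower, but the share of all genes was not counted at that threshold.

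SOMD against SOMC had 1 collagen gene higher, Col25a1 (1.45 ± 0.36, edgeR adjusted p = 0.0445), and none lower (1.26% and 1.07% of all genes). Col25a1 had 4.16, 3.17, 3.19 and 4.13 CPM in SOMC and 15.6, 4.32, 4.24 and 15.0 CPM in SOMD. All SOMD libraries were above all SOMC libraries, but SOMD2 and SOMD3 were close to SOMC, and the call was lost without any 1 of the SOMC libraries, SOMD1 or SOMD4 (adjusted p up to 0.219); with each nearly identical pair summed no collagen gene was called (all genes: 0.146% and 0.226%). Libraries of the same number deviated together here as well (correlations of 0.402 to 0.506 over 4 pairs). With the replicate number as a block in a fit of the 2 groups, 9 collagen genes were higher and 7 lower (all genes: 8.12% and 8.31%), and the counts were again 9 and 7 with each pair of libraries summed (5.27% and 5.05%).

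That blocked fit was chosen after the data were seen, on a pairing that the labels do not state. A block over all SOM libraries called only Col25a1 (all genes: 202 higher and 180 lower of 13790). Same numbers did not all pair across the SOM levels (SOMB3 correlated at -0.185 with SOMC3 and at 0.465 with SOMC2). The block over all SOM libraries therefore could not follow such a pairing. In the blocked fit of the 2 groups, 3 network and 3 cartilage chains were higher and none lower. There 2 basement membrane chains were lower and none higher, and 3 fibrillar chains were lower and 1 higher. Col6a3 (0.91, edgeR adjusted p = 0.000332), Col6a1 (0.54, 0.00256), Col6a2 (0.46, 0.00364), Col9a1 (0.45, 0.00245), Col11a1 (0.37, 0.000294) and Col2a1 (0.22, 0.00534) were higher, with Col12a1, Col25a1 and the fibrillar Col5a3. Col1a1 (-0.61, 7.59e-05), Col18a1 (-0.51, 7.86e-05), Col4a6 (-0.36, 0.0179), Col5a2 (-0.32, 0.0012) and Col5a1 (-0.20, 0.0077) were lower, with Col13a1 and Col14a1. The 4 comparisons along the somites share libraries with each other and are not independent.

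Partner chains of the same protein did not keep 1 ratio per kilobase. Col4a1 to Col4a2, which form the same type IV molecule, had ratios of 2.21 ± 0.0883 (SD, n = 3) in SOMA, 1.99 ± 0.130 to 2.06 ± 0.0536 (SD, n = 4 each) in the later levels and 1.84 ± 0.181 in CTRL. The trunk ratios were 1.64 ± 0.123 in WT and 1.47 ± 0.0440 in MUT (SD, n = 3 each), and no SOM library lay as low as the highest trunk library. Trunk libraries also had a larger share of alignments that were not unique, as given below, and its part was not tested. Col5a1 to Col5a2 went from 0.676 ± 0.0202 in SOMA over 0.711 ± 0.0613 and 0.828 ± 0.0293 to 0.892 ± 0.0238 in SOMD, where SOMA and SOMD did not overlap. Col1a1 to Col1a2 had no such order, at 1.11 ± 0.113, 0.813 ± 0.196, 1.08 ± 0.0710 and 0.721 ± 0.0800 along the somites, 1.47 ± 0.261 in CTRL and 0.352 ± 0.0791 in WT. Ratios of Col9a1 to Col9a2 were 6.35 ± 1.23 in SOMB and 14.1 ± 1.11 in SOMD. These ratios are descriptions, and they depend on the exon lengths used.

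**Figure D4:**
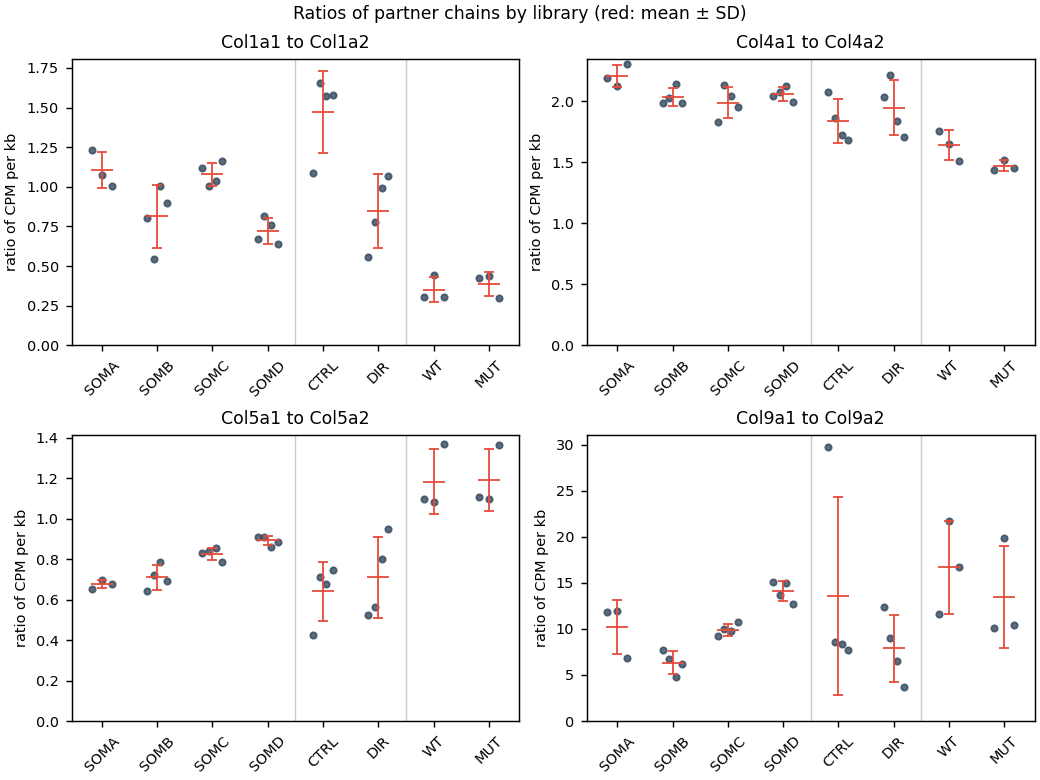
Ratio of CPM per kilobase between partner chains in each library of the 8 groups, with the group mean ± SD in red. Col1a1 to Col1a2 is 1.47 ± 0.261 in CTRL and 0.352 ± 0.0791 in WT, and Col5a1 to Col5a2 goes from 0.676 in SOMA to 0.892 in SOMD.

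DIR against CTRL asks what the molecules LDN and SAG did to cultured presomitic mesoderm. The clear collagen change was a fall of Col9a1, which had 54.3, 50.8, 69.9 and 61.1 CPM in CTRL and 14.9, 15.1, 14.5 and 16.4 CPM in DIR. The groups lay far apart, and the 4 DIR libraries were close together. The fall was 1.96 ± 0.13 on the log2 scale (edgeR adjusted p = 0.000449), or 3.89-fold, and it kept its call without any 1 library and under all 9 other settings.

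Of 33 collagen genes tested, Col9a1 was the only one called, with none higher (edgeR; 0.303% of all genes were higher and 0.444% lower). At an unadjusted p under 0.05, 16 collagen genes were lower, but the share of all genes was not counted at that threshold. The log2 fold changes of 32 of 33 were negative, with a median of -0.54 against -0.01 over all genes. The median was -0.29, with 7 of 33 positive, when a trend over length and GC content was removed, and -0.36, with 8 positive, with the share of alignments that were not unique as a term. The other type IX chains had -1.33 ± 0.52 (Col9a2, edgeR adjusted p = 0.287) and -1.52 ± 0.48 (Col9a3, 0.209), and Col2a1 had -0.91 ± 0.28 (0.209). Col1a1 had 131, 236, 252 and 299 CPM in CTRL and 55.1, 103, 60.4 and 133 CPM in DIR, where CTRL1 was just under DIR4. Its difference of -1.38 ± 0.33 missed the threshold (adjusted p = 0.118), but passed in DESeq2 (adjusted p = 0.00252), which called 3 collagen genes lower and none higher (Col1a1, Col9a1 and Col9a3; all genes: 1.92% lower and 1.36% higher). Col3a1 differed by -0.10 ± 0.32 and Col4a1 by -0.18 ± 0.15.

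The share of alignments that were not unique was 22.3 to 25.4% in 3 cultures (DIR1, DIR2 and CTRL1), against 15.9 to 19.5% for the remaining 5. Within the low-share libraries (2 DIR, 3 CTRL) 27 of the 28 described genes were lower in DIR, with a median log2 difference of -0.60, and within the high-share ones (2 DIR, 1 CTRL) 18 of 28, with a median of -0.08. Col9a1 was lower in both sets. The 28 genes were kept by their highest group mean, with CTRL among the groups, and no share over all genes was counted. A fit of the low-share libraries gave negative log2 fold changes for 31 of 33 genes tested, with a median of -0.59 (all genes: -0.01). In the low-share libraries edgeR called Col9a1, Col1a1, Col2a1 and Col5a2 lower (-1.95, -1.42, -0.83 and -0.88), where 1.04% of all genes were lower and 0.734% higher. Removing a trend over length and GC content, in which collagens stand apart (median exon length 6306 bases against 2784 for all genes), put Col18a1 higher in DIR (0.43, edgeR adjusted p = 0.037), whereas without this step it had -0.02 ± 0.30. Of 5 markers of lateral plate and heart 4 fell in DIR, from 126 to 223 CPM summed in CTRL to 43.4 to 69.7 CPM. Of 3 sclerotome markers tested 1 was called higher and 0 lower, with log2 fold changes from 0.078 to 3.93 (median 2.08). Of 3 neural tube markers tested 1 was called higher and 0 lower. The part of such cells in the collagen values was not tested.

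**Figure D5:**
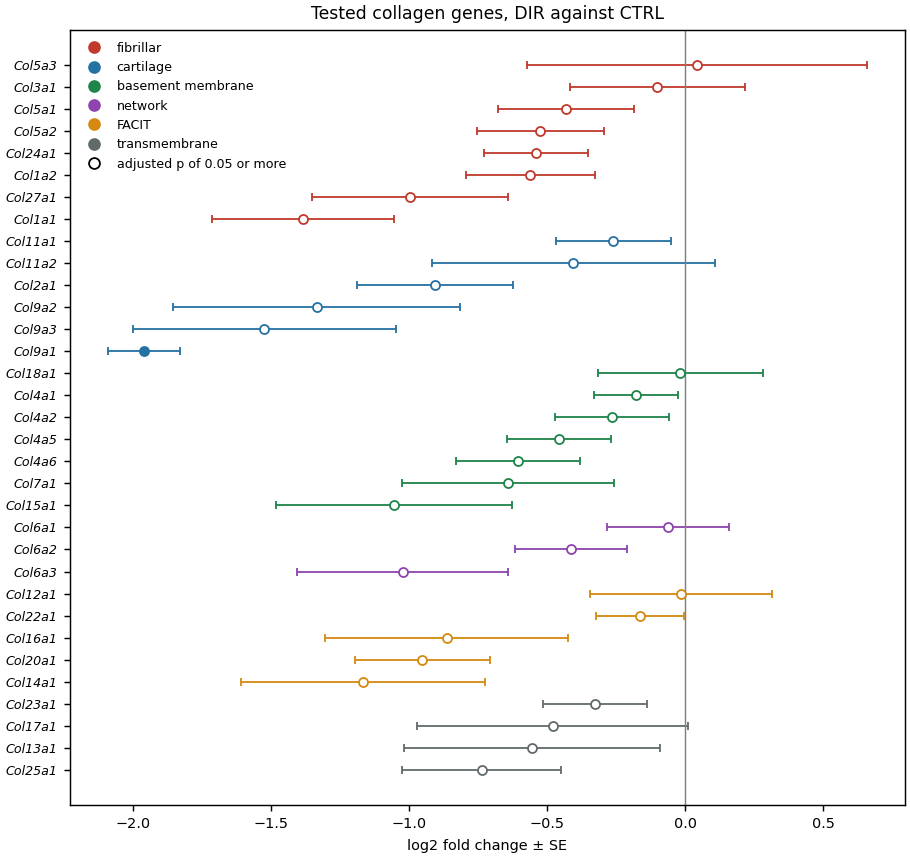
Log2 fold change ± SE of the 33 tested collagen genes in DIR against CTRL (positive: higher in DIR), coloured by class, filled where the edgeR adjusted p is under 0.05. All points but that of Col5a3 lie left of 0, and Col9a1, at -1.96, is the only filled one.

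CTRL against SOMA sets cultured cells beside uncultured ones, so culture and library set cannot be told apart. Of 39 collagen genes tested in a fit of all libraries, 9 were higher and 2 lower in CTRL (edgeR; 16% and 13.4% of all genes). Higher were all 3 main type VI chains, led by Col6a3 (2.22 ± 0.47, edgeR adjusted p = 0.00077), both type I chains, Col24a1, Col9a1 (0.95 ± 0.22, 0.00218), Col4a5 and Col4a6. Col17a1 and Col4a3 were lower. Without SOMA4 the counts were 5 and 0, and both type I chains, Col6a1, Col6a2, Col17a1 and Col4a3 lost their call; without CTRL4 both type I chains, Col6a2 and Col4a3 did. Col6a2 also lost it without SOMA1, CTRL2 or CTRL3, and Col17a1 without CTRL1 or CTRL3. With no filter, with the replicate block and with only the groups compared Col6a2 was not called either. Col3a1 and Col2a1, which rose along the somites, did not pass the test (0.41 ± 0.32, edgeR adjusted p = 0.36, and adjusted p = 0.994). Endothelial markers were higher in CTRL for 3 of 6 genes; their part was not tested.

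WT against the mean of the SOM groups sets whole trunk beside sorted cells, so that source, sorting and library set cannot be told apart. The share of alignments that were not unique was 38.8 to 39.6% in WT and 40.1 to 40.6% in MUT. It was 17.1 to 21.1% in the SOM libraries. Reads ambiguous between genes made 0.584 to 0.607% in WT and 1.49 to 1.75% in the SOM libraries. Xist, of the female inactive X, was at 3.14 to 11.6 CPM in WT and 284 to 1212 CPM in the SOM libraries. The part of these differences was not tested. Of 39 collagen genes 3 were higher and 17 lower in WT (edgeR; 33.3% and 32.1% of all genes). Of the fibrillar chains 5 of 8 were lower, with Col1a1 at -1.51 ± 0.30 (edgeR adjusted p = 0.00012) and Col5a2 at -1.29 ± 0.20 (2.74e-06), whereas Col1a2 (-0.15 ± 0.18) and Col2a1 (0.10 ± 0.18) did not pass the test. Col12a1, Col19a1 and Col8a2 were higher, but without WT3 Col12a1 and Col19a1 lost their call, and Col12a1 also did with the length and GC trend removed. All 5 erythroid, all 5 neural tube, 4 of 5 notochord and floor plate, all 6 endothelial, all 4 neural crest and all 5 gut and visceral endoderm markers were higher in WT, whereas 4 of 5 lateral plate and heart markers were lower. The sums were, for instance, 49.7 to 74.7 CPM of notochord and floor plate markers against 4.11 to 8.67 CPM in the SOM libraries; the part of these cells was not tested.

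MUT against WT showed no collagen gene past the threshold, of 37 tested (edgeR; 0.331% of all genes were higher and 0.0069% lower), and DESeq2 called none of the 20 to which it gave an adjusted p (4.93% of all genes with one were higher and 2.27% lower). At an unadjusted p under 0.05, 0 collagen genes were higher and 2 lower, Col4a5 (-0.29 ± 0.10, edgeR adjusted p = 0.192) and Col13a1 (-0.42 ± 0.17, 0.283). The share of all genes was not counted at that threshold. The sexes of the embryos were unequal between the groups: Xist, expressed from the inactive X of females, was at 3.14 to 11.6 CPM in WT and at 2.30, 1921 and 1920.2 CPM in MUT. With the Xist level as a term no collagen gene was called, the X-linked Col4a5 had -0.34 (adjusted p = 0.31), and 1 of all genes was called higher in place of 48. Col4a1 had 269, 273 and 268 CPM in WT and 246, 303 and 265 CPM in MUT, a log2 fold change with an SE of 0.07 and an edgeR adjusted p of 0.995, and Col1a2 differed by 0.03 ± 0.11. Col3a1 had 305, 355 and 575 CPM in WT and 324, 395 and 387 CPM in MUT, overlapping groups with a difference of -0.16 ± 0.20.

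Genes of collagen folding, export, cutting, crosslinking, binding, breakdown and regulation were listed separately (60 genes). They include the breakdown inhibitors Timp1, Timp2 and Timp3 and the regulators Sox5, Sox6 and Sox9. From SOMA to SOMD 24 of 56 tested rose and 7 fell, with a median log2 fold change of 0.30 (all genes: 10.8% and 8.92%, median 0.00). Serpinh1, the chaperone of procollagen, rose by 0.40 ± 0.06 from 866 ± 11.7 CPM (SD, n = 3), and Sec24d, a coat protein of procollagen export, by 0.88 ± 0.14 (edgeR adjusted p = 0.000182 and 0.00022). Adamts2, which removes the N-propeptide, rose by 1.97 ± 0.35 and the crosslinking enzyme Loxl1 by 1.75 ± 0.26 (edgeR adjusted p = 0.00062 and 0.000139). The collagen receptors Ddr2 and Itga11 rose by 2.61 ± 0.36 and 3.02 ± 0.40, and Sox9, a regulator of Col2a1, by 2.82 ± 0.32 (edgeR adjusted p = 6.72e-05, 4.51e-05 and 1.06e-05).

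Others of the list went the opposite way. The protease Tll2 fell by 6.69 ± 0.68, the propeptidase enhancer Pcolce2 by 1.67 ± 0.16 and the prolyl hydroxylase subunit P4ha3 by 1.91 ± 0.25 on the log2 scale (edgeR adjusted p = 3.69e-06, 2.28e-06 and 3.63e-05). The receptor Itga1, and Adamts3 of the propeptide cleavage genes, fell by 0.74 ± 0.20 and 0.65 ± 0.17 (edgeR adjusted p = 0.0159 and 0.0105). In DIR against CTRL 2 of 55 were called (all genes: 0.303% higher and 0.444% lower), both lower: P4ha3 (-2.75 ± 0.36, edgeR adjusted p = 0.00873) and Adamts2 (-1.93 ± 0.31, 0.0256), while Serpinh1 differed by -0.08 and Sox9 by -0.02. In MUT against WT none of 56 passed (edgeR), with 3 higher and 2 lower at an unadjusted p under 0.05, where the share of all genes was not counted.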

How the data were processed

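RNA was extracted with Trizol and libraries were made with the TruSeq v2 kit and 11 rounds of PCR, per the labels' protocols; this kit does not mark strand. The deposited values are whole-number counts per gene (23337 genes and 5 summary lines in each of 29 files). TopHat2 2.0.9, Cufflinks, HTSeq 0.6, DESeq2 1.10 and mm10 are named in the submitters' processing notes; the annotation and the strand setting are not stated there. Summary lines were left out of library sizes and tests.

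Tests used edgeR 4.0.16 (R 4.3.3) with TMM scaling, quasi-likelihood F tests, filterByExpr (minimum count 10, minimum total 15) and Benjamini-Hochberg adjustment over all genes tested, at 0.05. The SOM, culture and trunk libraries were fitted separately; CTRL against SOMA and WT against SOM came from a fit of all libraries. Levels are CPM with TMM factors over all 29 libraries; per-kilobase values use the union of exons of protein-coding transcripts in GENCODE M21 (22872 genes matched, all 43 members). DESeq2 1.42.0 was an alternative, and edgeR was tested on simulated data. The other alternatives changed scaling, filter, gene length, libraries, replicate block, length and GC trend, and read-share terms.

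Every same-numbered pair correlated above 0.1 only in SOMB with SOMA (0.455, 0.443 and 0.398) and SOMD with SOMC (0.402, 0.506, 0.493 and 0.443); this pairing comes from the data, since the labels do not state it. Libraries also deviated together under different numbers: SOMA3, SOMB3, SOMC2 and SOMD2 (0.377 to 0.506), and SOMA4, SOMB4, SOMC3 and SOMD3 (0.309 to 0.493). The tests of SOMC against SOMB and SOMD against SOMA do not model this. All members are accounted for, and those with a group mean of at least 5 CPM are described with values. Of the pathway lists, up to 3 genes per direction with the lowest p and fixed anchor genes were eligible to be named. The members and lists were chosen with earlier results of these data known.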

Additional observations from a re-analysis of the deposited data

Results flagged for a closer look

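In groups of 4 libraries, a library was singled out where its gap to the nearest other, as a share of the group's range, exceeded Dixon's 95% critical value. This marked 9 of 140 groups tested, near the 1 in 20 that chance gives. The basement membrane genes gave 5 of the 9. Of the 28 genes tested here, Col4a1, Col4a2, Col4a5, Col4a6, Col7a1, Col15a1 and Col18a1 were of this class. Their marks are not independent, since Col4a1 and Col4a2 share SOMB3, and Col18a1 and Col4a6 share SOMD2. Col4a1 had 494 CPM in SOMB3 against 342 to 356 CPM in the other SOMB libraries, and Col4a2 223 against 167 to 170 CPM. Col18a1 had 350 CPM in SOMD2 against 205 to 225 CPM, and Col4a6 40.4 CPM in SOMD2 against 22.7 to 23.0 CPM. Col4a6 also had 29.6 CPM in DIR2 against 19.0 to 20.5 CPM. SOMB3 and SOMD2 have the highest summed endothelial markers of their groups, 230 and 241 CPM; their part was not tested.

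Col12a1 had 1.94 CPM in DIR2 against 0.893 to 1.06 CPM in the other DIR libraries, and Col23a1 had 33.6 CPM in DIR3 against 50.6 to 53.9 CPM. Col25a1 had 1.7 CPM in SOMB4 against 2.67 to 2.69 CPM. Col6a1 had 6.52 CPM in SOMC3 against 9.02 to 9.52 CPM, in a group that holds 2 nearly identical libraries; SOMD holds 2 as well, and such a pair narrows the gaps among the other libraries.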

How the results depend on the processing

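Counts of collagen genes called are given as higher and lower; the settings with only low-share libraries, and the replicate block in a fit of only the groups compared, were chosen after seeing the data, and the cause of each change was not tested. SOMB against SOMA (5 and 1) gave 2 lower with no filter, in DESeq2 and with all libraries in 1 fit (all genes lower: 610, 724 and 433, against 627 in the main fit). It gave 13 higher with the no-feature share as a term (all genes: 875, against 569 in the main fit). With the replicate block in a fit of only the groups compared it gave 18 and 2 (all genes: 1268 and 1177). SOMC against SOMB (4 and 0) gave 1 higher with nearly identical libraries summed, 0 with low no-feature libraries only and 2 with all libraries in 1 fit. All genes gave 67 higher in the main fit and 11, 1 and 20 under these settings in turn. SOMD against SOMC (1 and 0) gave 0 higher with library totals, nearly identical libraries summed, low no-feature libraries only, only the groups compared and all libraries in 1 fit. All genes gave 150, 20, 1, 185 and 76 higher under these settings in turn. This comparison gave 3 and 1 with the no-feature term (all genes: 297 and 240). With the replicate block in a fit of only the groups compared it gave 9 and 7, with or without summing (all genes: 697 and 668, or 1075 and 1100). SOMD against SOMA (22 and 2) gave 15 and 1 with low no-feature libraries only (all genes: 720 and 654, against 1494 and 1230 in the main fit). A replicate block over all SOM libraries gave 5 and 1 for SOMB against SOMA (all genes: 530 and 615). For SOMD against SOMC it gave 1 and 0 (all genes: 202 and 180).

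DIR against CTRL (0 and 1) gave 3 lower in DESeq2, 4 with the replicate block, 4 with low not-unique libraries only and 6 with all libraries in 1 fit. All genes gave 63 lower in the main fit and 292, 195, 149 and 681 under these settings in turn. This comparison gave 1 and 2 with the length and GC trend removed (all genes: 148 and 230). It gave 1 higher with the not-unique share as a term (all genes: 97, against 43 in the main fit). Its numbers do not pair the libraries (correlations of -0.589 to 0.766). Col18a1 in DIR against CTRL turned from -0.02 to 0.43 with the length and GC trend removed and to 0.46 with the not-unique term (edgeR adjusted p = 0.037 and 0.0427). CTRL against SOMA gave 0 lower with only the groups compared (all genes: 1244). WT against SOM gave 6 higher with library totals and 5 with only the groups compared (all genes: 5877 and 5383). With the longest transcript as length, the fibrillar percent was 42.8 in CTRL and 38.2 in MUT; summed CPM of library totals was 2200 in MUT.

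Leaving out 1 library at a time gave 3 to 5 higher and 1 lower for SOMB against SOMA, 1 to 4 and 0 for SOMC against SOMB, 0 to 1 and 0 to 1 for SOMD against SOMC, 17 to 23 and 2 for SOMD against SOMA, 0 and 1 for DIR against CTRL, 5 to 11 and 0 to 2 for CTRL against SOMA, 2 to 6 and 13 to 18 for WT against SOM, and 0 and 0 for MUT against WT. Of 24 calls in SOMD against SOMA, 17 kept their call without any 1 library and 15 under every other setting.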
